A study of Mus musculus with 12 samples.

Results

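The genes described here are 40 collagen, basement membrane and stromal genes, of 54532 genes in the count table of a mouse macrophage RNA sequencing study. They encode fibrillar and other collagens, basement membrane proteins, matrix proteoglycans and binding proteins, collagen-processing enzymes, and receptors and contractile proteins of mesenchymal cells. They were chosen by name, with their genotype difference in these libraries already known. That difference is therefore given as a description with no test, and tests are given for the response to Pg and for the genotype by Pg interaction.

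Poly-A RNA was sequenced from bone marrow-derived macrophages, grown from femoral marrow of 8-week-old male mice with M-CSF at 50 ng/mL, which makes marrow progenitors become macrophages. The genotypes are labelled Itga9-Lyz2-cKO (cKO) and Itga9-Lyz2-cHet (cHet), both names carry Itga9 and Lyz2, and no wild type was included in the libraries used here. Cells of each genotype were given an agent labelled Pg for 2 hours at a multiplicity of infection of 1:20, or were left as controls, with 3 libraries in each of the 4 groups (cKO Pg, cKO control, cHet Pg and cHet control). Itga9 encodes the integrin alpha9 subunit, and Lyz2 is a gene of myeloid cells whose promoter is widely used to drive Cre recombinase there, so a deletion driven by it is not directed at non-myeloid cells of the marrow. The labels name no Cre line and leave unsaid if replicate libraries are from different animals or dishes. P-values here therefore rest on the scatter of the libraries, and part or all of that scatter may be technical.

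Fibrillar collagens form the tensile fibres of connective tissue, and networks of type IV collagen, laminins, nidogens and perlecan form basement membranes. Fibroblasts, reticular cells, pericytes, smooth muscle cells and endothelial cells make most of these proteins, and macrophages mainly take up and degrade matrix while making a few of its components. In bulk RNA, fewer cells of a type and less RNA per cell cannot be told apart.

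Library totals lay between 14527674 and 16793803 counts. Itga9 stood at 13.6, 11.6 and 7.84 CPM (the count scaled to a common library size after TMM) in cKO Pg and 19.4, 34.0 and 33.4 CPM in cHet Pg, and at 11.5, 5.98 and 6.42 CPM in cKO control and 32.3, 17.9 and 18.9 CPM in cHet control. Every cKO library lay below every cHet library of the same treatment, with log2 differences of -1.39 under Pg (edgeR adjusted p = 0.125) and -1.53 in controls (adjusted p = 0.0497). The call in controls was kept in 2 of 12 runs with a library left out (-1.90 to -1.20), those without cHet Pg 1 or cKO control 1. Lyz2 itself was at 10142 ± 771 CPM in cKO Pg and 19510 ± 2190 CPM in cHet Pg, and at 9764 ± 924 CPM in cKO control and 19366 ± 1605 CPM in cHet control (SD, n = 3 each), lower in cKO by log2 differences of -0.94 under Pg (edgeR adjusted p = 1.23e-05) and -0.99 in controls (adjusted p = 6.39e-06). The genotypes thus differ in the RNA of both genes in their names, and a cKO against cHet difference cannot be assigned to Itga9 alone. All 13 macrophage markers checked were detected in each library, at 7.38 CPM (Cx3cr1) to 5408 CPM (Csf1r). The libraries of each group also differed in a way that the labels do not name. The first component of their deviations from the group means, 46.4% of that variance over 9346 genes, set 6 libraries with Itgax at 103 to 137 CPM apart from 6 with Itgax at 36.2 to 59.3 CPM. Itgax encodes the integrin alphaX subunit. The Itgax-high libraries were cKO Pg 1 and 2, cKO control 1, cHet Pg 2 and 3, and cHet control 1, so they were 2 of 3 in each Pg group and 1 of 3 in each control group. Values with this split as a term in the model, chosen after seeing the data, are given where they change a call. The split was drawn from the scatter of these same libraries, so p-values with it as a term tend to be too small.

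Promoter windows of 300 bases around the annotated start were found for 26 of the 40 members in RefSeq (GRCm38.p6, the build of the files). The 4 printed here are the 250 bases before the start of Bgn and Col3a1, whose RNA was low in cKO libraries, and of Col15a1 and Igfbp4, whose RNA was not. They are shown because the contrast between such genes is the main pattern of the set, and because these bases overlap no annotated exon. All are on the + strand, written 5′ to 3′, at chrX:73483351-73483600 (Bgn), chr1:45311288-45311537 (Col3a1), chr4:47207762-47208011 (Col15a1) and chr11:99040994-99041243 (Igfbp4). Capitals mark any TATAAA motif, any CCAAT motif and any GGGCGG motif on either strand, and neighbouring matches may overlap.
Bgn: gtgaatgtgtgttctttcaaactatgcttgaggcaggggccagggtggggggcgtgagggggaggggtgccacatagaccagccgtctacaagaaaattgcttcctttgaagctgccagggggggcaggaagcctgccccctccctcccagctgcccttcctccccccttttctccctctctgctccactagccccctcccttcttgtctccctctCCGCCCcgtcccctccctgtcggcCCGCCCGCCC
Col3a1: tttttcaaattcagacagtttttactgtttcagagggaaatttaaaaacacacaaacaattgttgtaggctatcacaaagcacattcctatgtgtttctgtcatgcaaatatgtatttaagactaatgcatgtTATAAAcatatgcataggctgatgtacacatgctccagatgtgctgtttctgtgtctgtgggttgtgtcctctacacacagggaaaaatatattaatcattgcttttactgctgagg
Col15a1: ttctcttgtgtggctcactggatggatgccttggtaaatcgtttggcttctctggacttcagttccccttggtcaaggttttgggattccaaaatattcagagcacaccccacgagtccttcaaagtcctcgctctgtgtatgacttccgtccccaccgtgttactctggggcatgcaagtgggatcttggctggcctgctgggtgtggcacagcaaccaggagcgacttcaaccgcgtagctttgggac
Igfbp4: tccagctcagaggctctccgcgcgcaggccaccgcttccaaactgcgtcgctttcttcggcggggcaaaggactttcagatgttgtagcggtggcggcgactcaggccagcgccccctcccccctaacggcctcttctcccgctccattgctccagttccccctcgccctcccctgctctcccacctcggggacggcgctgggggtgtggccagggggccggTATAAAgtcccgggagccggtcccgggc
The promoter windows of Col12a1, Lamc1, Dcn, Col1a1, Tagln, Lox, Col5a2, Lum, Lama4, Loxl1, Pdgfrb, Nid2, Mgp and Thy1 were not used here. The Bgn sequence holds 3 GGGCGG matches, all read on the other strand as CCGCCC, and the last 2 overlap. Col3a1 and Igfbp4 hold 1 TATAAA each, so this motif occurs on both sides of the contrast, and Col15a1 holds none of the 3 motifs. Over the 31 windows of the 26 matched members, GGGCGG occurred in 58.06%, against 35.66% of all 32851 windows. CCAAT occurred in 29.03% of member windows and 37.41% of all windows, and TATAAA in 12.9% and 13.62%. The median GC content was 61% in member windows and 52.67% in all windows. These matches are descriptions of the letters in the windows.

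The RNA of 26 members was below 20% of its cHet level in cKO macrophages, that of 8 lay between 20% and 70%, and that of 5 was at 70% or above, over the 12 libraries. Lum, which encodes the proteoglycan lumican, had a count of 0 in every library. These ranges were set after the values were seen, and the members nearest to the lower limit were Postn at 17.7% (95% counting interval 6.69 to 39.9) and Col5a1 at 16.9% (10.8 to 25.5) inside it, and Nid2 at 22.9% (15.2 to 33.6) outside it. Counting intervals here cover counting error only. The count filter kept 33 of the 40 members among 13800 tested genes and left out Pdgfra, Thy1, Dcn, Postn, Tagln, Lepr and Lum. A member that passed only through its cHet libraries had to differ by genotype, so the counts below describe the tested members and not the whole set.

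The summed level of the 26 low genes was 8.74, 6.33 and 7.71 CPM in cKO Pg and 6.55, 3.93 and 4.55 CPM in cKO control, against 86.1, 90.5 and 79.6 CPM in cHet Pg and 76.3, 70.4 and 80.5 CPM in cHet control. Neither range of cKO values came near the cHet values. These 26 genes were grouped by their cKO level relative to cHet in these same libraries, so this gap follows from the grouping. These sums rest on 63 to 130 counts in a cKO library and 1188 to 1371 counts in a cHet library. The 8 intermediate genes summed to 22.6 ± 2.34 CPM in cKO Pg and 40.6 ± 4.32 CPM in cHet Pg, and to 17.4 ± 2.39 CPM in cKO control and 33.5 ± 2.85 CPM in cHet control. The 5 remaining genes summed to 624 ± 5.01 CPM in cKO Pg and 559 ± 59.8 CPM in cHet Pg, and to 549 ± 48.9 CPM in cKO control and 569 ± 66.6 CPM in cHet control. Since Igfbp4 alone supplies most of the counts, the sum of the 40 members was 655 ± 6.90 CPM in cKO Pg and 685 ± 58.4 CPM in cHet Pg, and 572 ± 49.4 CPM in cKO control and 678 ± 65.7 CPM in cHet control. The set thus has no common level: its sum over both treatments was 89.9% in cKO of that in cHet, and 53.4% without Igfbp4. Without both Igfbp4 and Lamc1, the next most abundant member, it was 37.6% in controls and 33.0% under Pg.

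**Figure D1:**
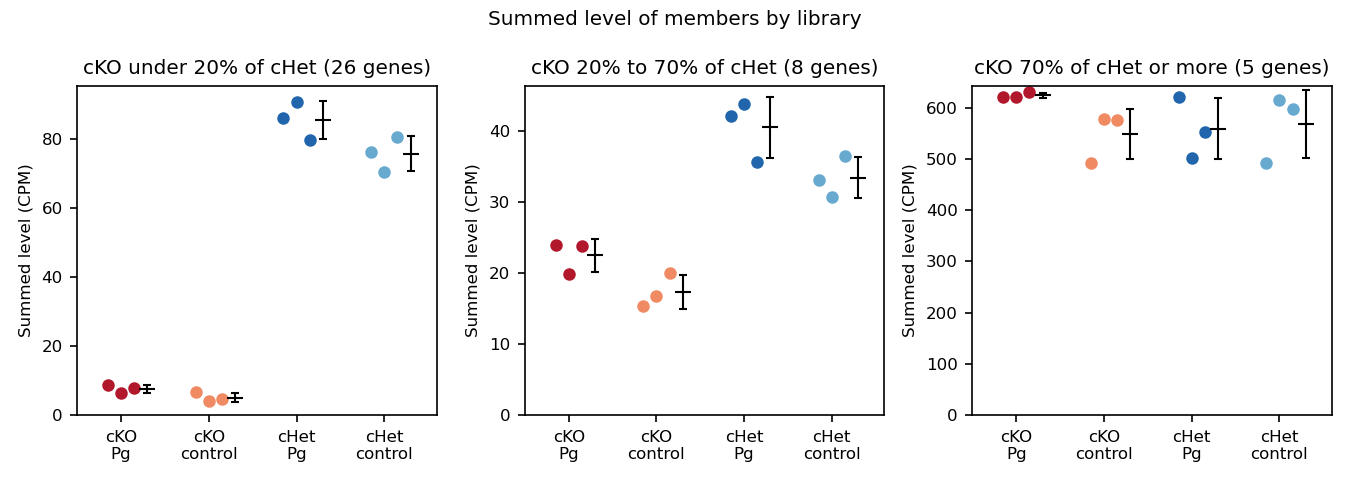
Summed level in CPM (vertical axes, from 0) of the members in 3 ranges of cKO level relative to cHet, for the 4 groups; points are libraries and bars the mean ± SD of 3 libraries. The 26 low genes sum to at most 8.74 CPM in any cKO library and at least 70.4 CPM in any cHet library, while the 5 genes at 70% or above overlap between genotypes. The genes were grouped by these same values, so this contrast follows from the grouping.

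Among tested members, every cKO library lay below every cHet library for 29 of 33 in controls and for 30 of 33 under Pg, where 11.7% and 8.51% of all tested genes did so. Over all 12 libraries together this held for 27 of 33, against 1.24% of all tested genes. The level in cKO was under 20% of cHet for 24 tested members in controls (0.63% of all tested genes), 23 under Pg (0.558%) and 23 over the 12 libraries (0.522%). The median cKO level was 8.60% of cHet in controls and 11.9% under Pg over the tested members, beside 100.2% and 99.97% over all tested genes. The members were picked for this difference, so these shares describe the choice and are no evidence for it. The count of 23 was 23 or 24 when each library was left out in turn or the scaling was changed.

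**Figure D2:**
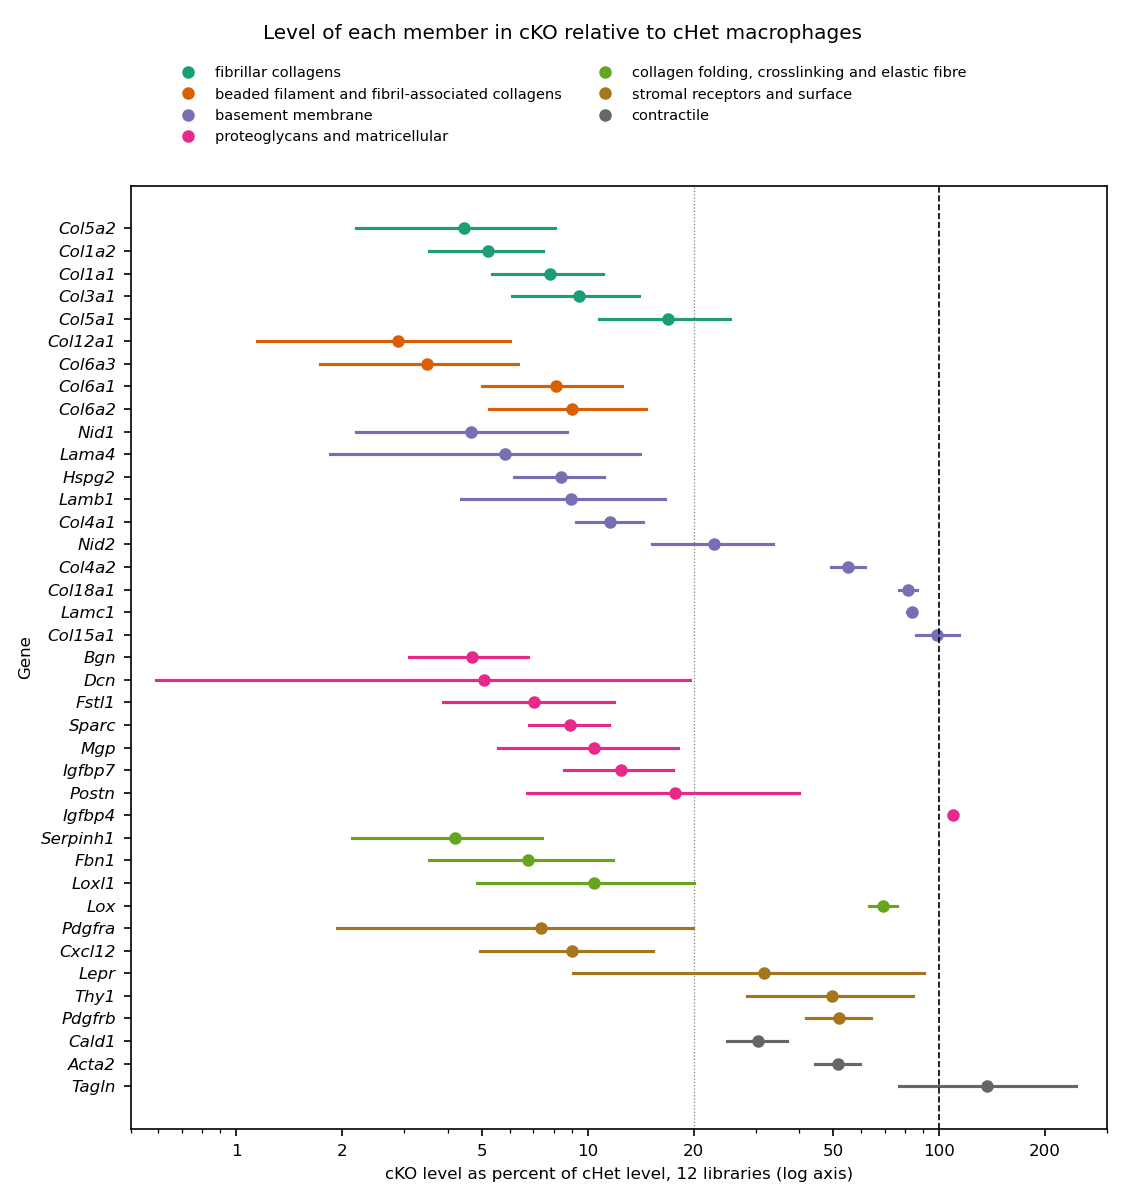
Level of each of 39 members in cKO as a percent of its cHet level over 12 libraries (horizontal log axis; Lum, at 0 throughout, is not drawn), grouped by role; lines are 95% counting intervals, the dotted line marks 20% and the dashed line 100%. All 5 fibrillar collagen genes lie left of 20%, whereas the 10 basement membrane genes run from 4.64% (Nid1) to 98.7% (Col15a1).

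All 5 fibrillar collagen genes were low in cKO macrophages. Col1a1 and Col1a2 encode the chains of type I collagen, the main fibre of bone and tendon. Col1a2 stood at 0.538, 0.142 and 0.482 CPM in cKO Pg and 0.357, 0.187 and 0.350 CPM in cKO control, against 6.89, 8.59 and 6.16 CPM in cHet Pg and 6.23, 6.23 and 5.60 CPM in cHet control. The cKO level was 5.21% of cHet over the 12 libraries (counting interval 3.54 to 7.44), with 2 to 8 counts in each cKO library. Col1a1 was at 7.80%, Col3a1, the chain of type III collagen in pliable tissue, at 9.42%, and Col5a2 and Col5a1, chains of the type V collagen that starts fibrils, at 4.43% and 16.9%. Per kilobase of gene model, the mean level in cHet libraries ran from 0.202 CPM (Col5a1) to 0.717 CPM (Col1a1), and in cKO libraries from 0.0128 CPM (Col5a2) to 0.0580 CPM (Col1a1). The 5 genes together stood at 1.90 ± 0.508 CPM in cKO Pg and 20.4 ± 3.44 CPM in cHet Pg, and at 0.959 ± 0.203 CPM in cKO control and 17.3 ± 0.181 CPM in cHet control.

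The genes of beaded-filament and fibril-associated collagens were the lowest as a group. Col12a1, whose product coats collagen fibrils, was at 2.88% of its cHet level (counting interval 1.15 to 6.02), with 0 to 2 counts per cKO library and 31 to 58 per cHet library. Col6a3, Col6a1 and Col6a2, the chains of the type VI microfibril, were at 3.49%, 8.09% and 9.02%. The 4 genes summed to 0.778 ± 0.319 CPM in cKO Pg and 11.8 ± 1.16 CPM in cHet Pg, and to 0.473 ± 0.368 CPM in cKO control and 10.4 ± 0.924 CPM in cHet control.

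Basement membrane genes did not move as a block. Nid1 and Nid2 (nidogens, which link laminin and collagen IV) were at 4.64% and 22.9% of their cHet level, Lama4 and Lamb1 (laminin alpha4 and beta1 chains) at 5.82% and 8.98%, and Hspg2 (the proteoglycan perlecan) at 8.36%. Hspg2 stood at 0.538, 0.356 and 0.757 CPM in cKO Pg and 0.833, 0.498 and 0.292 CPM in cKO control, against 7.03, 6.34 and 6.63 CPM in cHet Pg and 5.68, 5.65 and 8.03 CPM in cHet control. Every cKO value was thus below every cHet value.

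Lamc1 (the laminin gamma1 chain) differed from its partner chains. It stood at 71.5, 77.0 and 105 CPM in cKO Pg and 52.1, 73.9 and 85.4 CPM in cKO control, against 144, 92.4 and 92.6 CPM in cHet Pg and 65.3, 85.4 and 83.9 CPM in cHet control. The genotypes overlapped, and cKO was at 83.4% of cHet (counting interval 80.9 to 86.1). Per kilobase of gene model in cHet libraries, Lamc1 was at 11.4 CPM, Lamb1 at 0.136 CPM and Lama4 at 0.0773 CPM. Within each group the libraries with high Itgax had the lower Lamc1. Whether the cause of that split also sets Lamc1 was not tested.

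**Figure D3:**
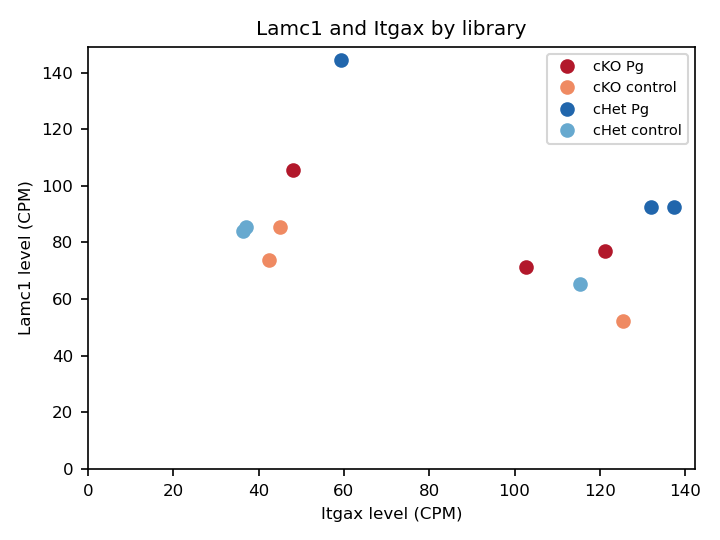
Level of Lamc1 against that of Itgax, both in CPM, in the 12 libraries, coloured by group. Libraries fall into a cluster with Itgax at 36.2 to 59.3 CPM and a cluster at 103 to 137 CPM, and within each group Lamc1 is lower in the cluster with high Itgax, for example 92.4 and 92.6 against 144 CPM in cHet Pg.

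Col4a1 and Col4a2 encode the chains of the common type IV collagen and lie head to head on chromosome 8. In RefSeq (GRCm38.p6) the first base of Col4a1 is 11312826 on the - strand and that of Col4a2 is 11312805 on the + strand, so their starts overlap by 22 bases. Col4a1 stood at 0.807, 1.21 and 1.86 CPM in cKO Pg and 0.833, 0.561 and 0.817 CPM in cKO control, against 8.15, 10.1 and 8.98 CPM in cHet Pg and 7.79, 7.34 and 9.53 CPM in cHet control. Col4a2 stood at 5.65, 4.48 and 4.40 CPM in cKO Pg and 5.18, 4.61 and 6.01 CPM in cKO control, against 7.59, 11.1 and 9.11 CPM in cHet Pg and 9.96, 8.74 and 8.90 CPM in cHet control. For both genes all cKO libraries were below all cHet libraries, but Col4a1 was at 11.6% of cHet (counting interval 9.24 to 14.4) and Col4a2 at 55.1% (49.1 to 61.6). Per kilobase in cHet libraries the genes were close, at 1.16 CPM for Col4a1 and 1.39 CPM for Col4a2, and in cKO libraries they were at 0.136 and 0.764 CPM. The strand setting of the counting is not given in the sources used here. How reads from the 22-base overlap of the starts were counted is therefore not known.

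Col18a1 and Col15a1 encode the collagens XVIII and XV, which carry glycosaminoglycan chains and sit at the edge of basement membranes. Col15a1 stood at 4.77, 4.62 and 6.33 CPM in cKO Pg and 3.57, 3.30 and 3.09 CPM in cKO control, against 4.01, 5.56 and 4.76 CPM in cHet Pg and 2.50, 4.25 and 4.92 CPM in cHet control. The genotypes overlapped, at 98.7% of cHet (counting interval 85.7 to 114). Col18a1 stood at 17.2, 19.3 and 19.7 CPM in cKO Pg and 19.6, 24.5 and 29.0 CPM in cKO control, against 37.2, 29.5 and 33.0 CPM in cHet Pg and 21.4, 21.8 and 20.2 CPM in cHet control. The genotypes overlapped in controls, at 115%, and did not overlap under Pg, at 56.3%.

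Proteoglycan and matricellular genes were low in cKO with the exception of Igfbp4. Bgn, which encodes biglycan, a small proteoglycan that binds collagen, stood at 0.134, 0.427 and 0.344 CPM in cKO Pg and 0.417, 0.0623 and 0.467 CPM in cKO control, against 6.75, 7.11 and 5.69 CPM in cHet Pg and 7.18, 5.53 and 7.60 CPM in cHet control. Sparc, whose product binds collagen and assists its assembly, stood at 0.807, 1.07 and 0.963 CPM in cKO Pg and 0.655, 0.623 and 0.175 CPM in cKO control, against 8.85, 9.01 and 7.70 CPM in cHet Pg and 6.34, 8.15 and 7.16 CPM in cHet control. Bgn was thus at 4.67% of cHet and Sparc at 8.91%, with no overlap of genotypes for either. Dcn (decorin) was at 5.06%, Fstl1 (a secreted glycoprotein) at 7.03%, Mgp (an inhibitor of calcification) at 10.4% and Igfbp7 (a binding protein of insulin-like growth factors) at 12.4%. Dcn rests on 2 counts in the 6 cKO libraries and 40 in the 6 cHet libraries (counting interval 0.592 to 19.5), and Postn, which encodes periostin, on 7 and 40.

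Igfbp4, another binding protein of insulin-like growth factors, was the most abundant member. It stood at 528, 521 and 499 CPM in cKO Pg and 417, 476 and 460 CPM in cKO control, against 436, 375 and 422 CPM in cHet Pg and 404, 505 and 489 CPM in cHet control. The genotypes overlapped in controls, and under Pg every cKO library lay above every cHet library (125% of cHet, counting interval 123 to 128).

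Genes of collagen folding, crosslinking and the elastic fibre fell into the low range apart from Lox. Serpinh1 (HSP47, the chaperone of procollagen) was at 4.19% of its cHet level, Fbn1 (fibrillin 1) at 6.75% and Loxl1 (an enzyme that crosslinks elastin) at 10.4%. Lox, the lysyl oxidase that crosslinks collagen and elastin, stood at 8.47, 9.03 and 11.4 CPM in cKO Pg and 5.95, 7.41 and 7.82 CPM in cKO control, against 16.6, 14.3 and 11.7 CPM in cHet Pg and 9.18, 10.4 and 10.8 CPM in cHet control. The cKO libraries were below the cHet libraries within each treatment, at 69.1% of cHet (counting interval 62.9 to 75.8).

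Stromal receptors and surface genes were mixed and mostly weak. Cxcl12, a chemokine that retains blood stem cells in the marrow, was at 9.03% of its cHet level (15 counts in cKO and 168 in cHet) and Pdgfra, a growth factor receptor of fibroblasts, at 7.36% (4 and 55). Pdgfra had a count of 0 in the 3 cKO control libraries, so that its cKO control level lay between 0 and 11.1% of cHet control (counting interval). Pdgfrb, the matching receptor of pericytes, was at 51.8% (counting interval 41.7 to 64.0). Thy1, a surface protein of fibroblasts and T cells, was at 49.5% (28.3 to 84.1), and Lepr, the leptin receptor of marrow reticular cells, at 31.6% (9.06 to 90.3), with only 5 counts in cKO and 16 in cHet. The 5 genes summed to 2.27 ± 0.670 CPM in cKO Pg and 5.69 ± 1.23 CPM in cHet Pg, and to 1.62 ± 0.270 CPM in cKO control and 5.86 ± 1.26 CPM in cHet control.

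Contractile genes differed among themselves. Acta2 (smooth muscle actin) stood at 5.11, 3.41 and 3.16 CPM in cKO Pg and 1.55, 2.18 and 2.51 CPM in cKO control, against 6.11, 8.31 and 5.56 CPM in cHet Pg and 4.40, 4.48 and 5.98 CPM in cHet control. Cald1 (caldesmon, which binds actin) stood at 2.22, 1.21 and 1.93 CPM in cKO Pg and 0.952, 1.06 and 1.52 CPM in cKO control, against 5.27, 6.20 and 5.56 CPM in cHet Pg and 4.67, 3.03 and 4.61 CPM in cHet control. Within each treatment the genotypes did not overlap for either gene, at 51.3% of cHet for Acta2 and 30.4% for Cald1. Tagln (transgelin, an actin-binding protein) was at 136% of cHet over the 12 libraries (counting interval 77.0 to 245), the highest of the 39 members with counts. It had 9, 8 and 6 counts in cKO control against 1, 4 and 0 counts in cHet control. Under Pg its libraries overlapped, with 1, 4 and 3 counts in cKO Pg against 2, 10 and 6 counts in cHet Pg.

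Pg changed few of the tested members. In cKO macrophages 5 of 33 passed an adjusted p of 0.05 by edgeR's quasi-likelihood test (34% of all tested genes did), of which Acta2, Col15a1, Col1a1 and Lox rose and Col18a1 fell. In cHet macrophages 2 of 33 passed (36.1% of all tested genes), Col18a1 and Lox, and both rose. For the mean of both genotypes 7 of 33 passed (47.2% of all tested genes), all of them higher under Pg: Acta2, Cald1, Col15a1, Col1a1, Col4a1, Lox and Sparc. The shares of members called were below those of all tested genes in each comparison, and many members had few counts. The fitted log2 change was above 0 for 24 of 33 members in cKO and for 27 of 33 in cHet, with medians of 0.42 and 0.24, beside medians of -0.0043 and -0.0068 over all tested genes. With library totals in place of TMM scaling, the median of all genes moved by -0.24 in the Pg comparisons. Calls over all tested genes were 4687 in cKO, 4980 in cHet and 6518 for the mean with TMM scaling. They rose to 6572, 6726 and 8381 with library totals, where 3 members passed in cKO, 3 in cHet and 4 for the mean. The calls in cHet were then Col18a1, higher under Pg, and Igfbp4 (-0.43) and Fstl1 (-0.74), lower. The 4 calls for the mean were then Acta2 and Col1a1, higher, and Igfbp4 (-0.24) and Col4a2 (-0.30), lower. For the mean and in cHet, the called members were thus all higher with TMM scaling and not with library totals. In cKO, Col18a1 was called as lower with TMM scaling.

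**Figure D4:**
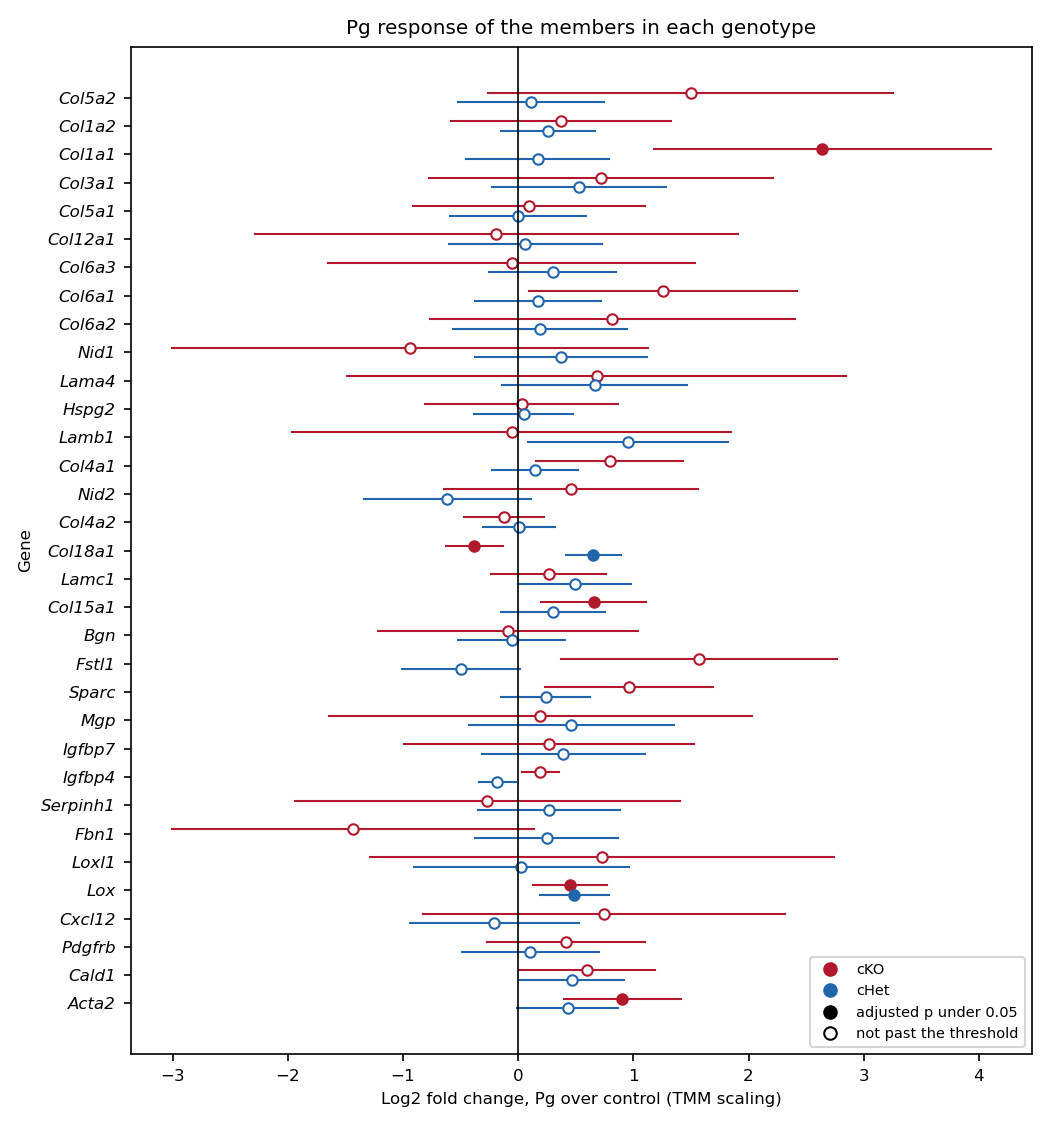
Log2 fold change of Pg over control (horizontal axis, TMM scaling) for the 33 tested members in cKO (red) and cHet (blue) macrophages. Lines are approximate 95% intervals, which can exclude 0 where the test does not pass. Filled points passed an adjusted p of 0.05 by edgeR's quasi-likelihood test. Col18a1 is the gene with filled points on both sides of 0, at -0.38 in cKO and 0.65 in cHet.

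Col18a1 responded to Pg in opposite directions. It fell in cKO by 0.38 on the log2 scale (SE 0.12, edgeR adjusted p = 0.0253) and rose in cHet by 0.65 (SE 0.12, adjusted p = 0.000444), where all Pg libraries were above all controls. In cKO the libraries of the 2 treatments overlapped by a narrow margin, 19.6 CPM in 1 control library against 19.7 CPM in the highest Pg library. The interaction was -1.03 (SE 0.17, 95% interval -1.37 to -0.69, edgeR adjusted p = 0.0107). Col18a1 was the only member past the threshold for the interaction, as were 0.717% of all tested genes. The interaction shares its libraries with the genotype difference by which the members were known. It passed under every alternative run, and with any library left out it lay between -1.17 and -0.88. The fall in cKO did not pass without cKO control 2 or 3 or cKO Pg 1 or 2, at -0.40 to -0.23.

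Lox rose in both genotypes by similar amounts, 0.45 in cKO (SE 0.16, edgeR adjusted p = 0.0414) and 0.49 in cHet (SE 0.15, adjusted p = 0.0192), and all Pg libraries were above all controls in each. The mean rise was 0.47 (SE 0.11, adjusted p = 0.00218), and the interaction was -0.04 with a 95% interval that includes 0. With library totals as scaling, the values were 0.20 in cKO, 0.24 in cHet and 0.22 for the mean and none passed. The call in cHet was lost without cHet control 1 (0.43) or cHet Pg 1 (0.36), and in cKO without any of 7 single libraries (0.31 to 0.49), which were cHet control 2 and 3, cHet Pg 2, cKO control 1 and 2 and cKO Pg 2 and 3.

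Acta2 rose in cKO by 0.91 (SE 0.26, edgeR adjusted p = 0.0113), with all Pg libraries above all controls. In cHet it was 0.43 (SE 0.22, adjusted p = 0.151), and the interaction of 0.48 (95% interval -0.19 to 1.15) did not pass. The mean over both genotypes was 0.67 (SE 0.17, adjusted p = 0.0037). Without cKO control 1 or cKO Pg 1 the cKO value was 0.73 or 0.66 and did not pass.

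Col1a1 rose in cKO by 2.64 (SE 0.75, edgeR adjusted p = 0.0111) at very low counts. It had 10, 2 and 17 counts in cKO Pg and 3, 1 and 1 counts in cKO control, against 71, 91 and 53 counts in cHet Pg and 62, 91 and 73 counts in cHet control. The cKO treatments overlapped, and the cHet groups did too, with a change of 0.17 (adjusted p = 0.722). The interaction was 2.47 (SE 0.82) with an edgeR adjusted p = 0.196 and passed only with no count filter (2.48) among the alternatives. The other type I chain, Col1a2, changed by 0.37 in cKO (95% interval -0.58 to 1.33). Without cKO Pg 3 or cKO control 3 the cKO rise was 1.97 or 2.38 and did not pass, and the mean of both genotypes (1.40, SE 0.41, adjusted p = 0.00912) was 1.07 and did not pass without cKO Pg 3.

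Col15a1 rose in cKO by 0.66 (SE 0.23, edgeR adjusted p = 0.0373) with no overlap between treatments, and for the mean of both genotypes by 0.48 (SE 0.16, adjusted p = 0.0229). Its change in cHet was 0.30 (adjusted p = 0.342). The cKO call was lost without cKO control 1, 2 or 3 or cKO Pg 3 (0.50 to 0.71) and, with library totals as scaling, at 0.41. The mean call was lost without cHet control 1, cHet Pg 2, cKO control 3 or cKO Pg 3 (0.36 to 0.45) and with library totals (0.24).

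Sparc, Cald1 and Col4a1 passed only for the mean of both genotypes, at 0.60 (SE 0.21, edgeR adjusted p = 0.0262), 0.53 (SE 0.19, adjusted p = 0.0282) and 0.47 (SE 0.19, adjusted p = 0.0485). With library totals as scaling they were at 0.36, 0.29 and 0.23 and none passed. The Sparc call was lost without cKO control 3 (0.40) or cKO Pg 2 (0.55). Cald1 lost its call without any of 6 single libraries, at 0.44 to 0.51, and Col4a1 without any of 9, at 0.29 to 0.52. Those for Cald1 were cHet control 2, cHet Pg 2, cKO control 1 and 2 and cKO Pg 1 and 3. For Col4a1 they were cHet control 1 and 2, cHet Pg 2 and 3, cKO control 1, 2 and 3 and cKO Pg 2 and 3, and the call was also lost in DESeq2 (0.48) and with no count filter (0.45). In cKO alone, Sparc passed without cKO control 1 (1.25) and Col4a1 without cKO Pg 1 (1.05).

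**Figure D5:**
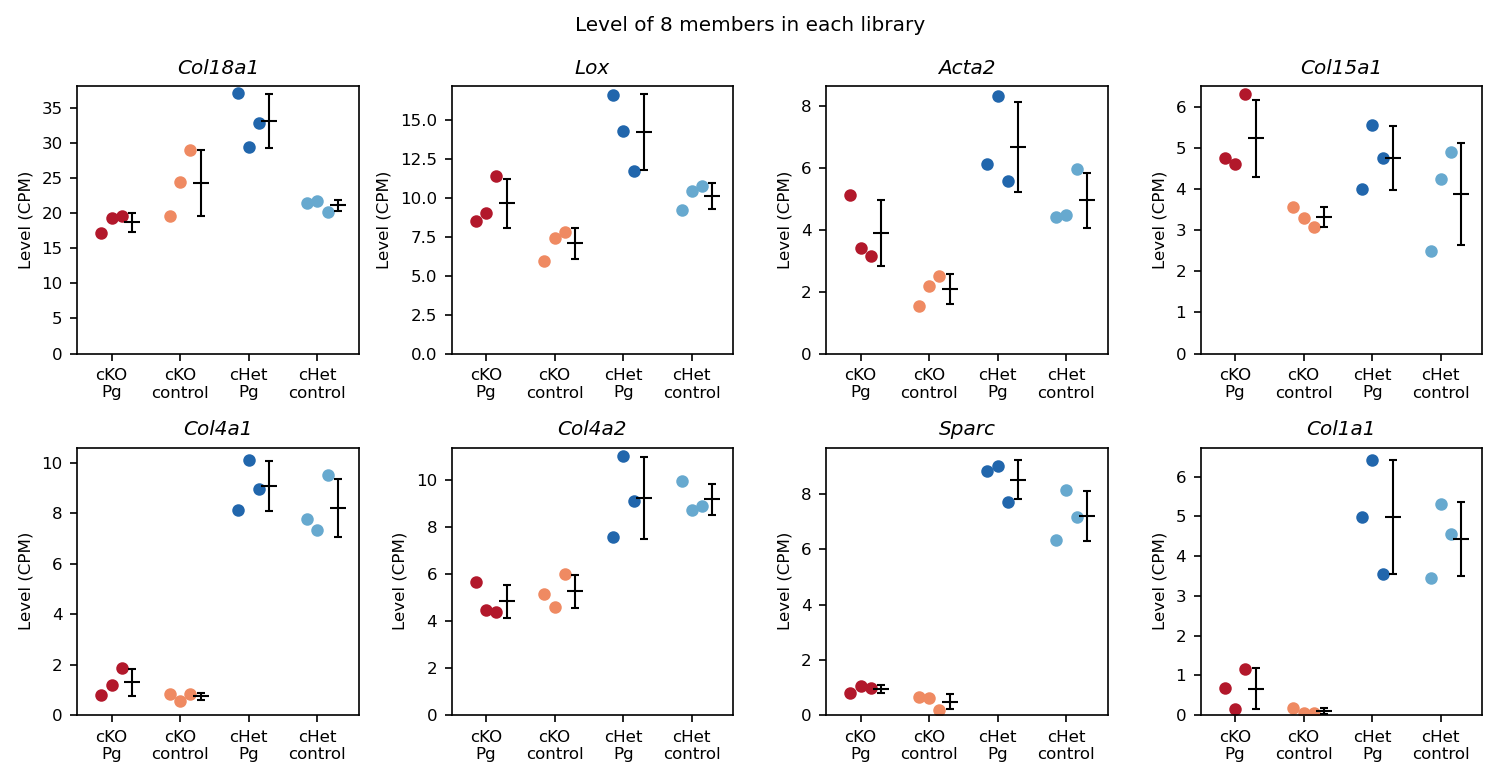
Level in CPM (vertical axes, from 0) of 8 members in each of the 12 libraries, by group; points are libraries and bars the mean ± SD of 3 libraries. Under Pg the Col18a1 libraries lie at 17.2 to 19.7 CPM in cKO and 29.5 to 37.2 CPM in cHet, while Col4a1 and its neighbour Col4a2 differ in how far cKO lies below cHet.

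Igfbp4 and Lamc1, the members with the most counts, did not pass for Pg in either genotype. Igfbp4 changed by 0.19 in cKO (SE 0.08, edgeR adjusted p = 0.0823) and -0.18 in cHet (SE 0.08, adjusted p = 0.105), with an interaction of 0.37 (SE 0.12, adjusted p = 0.173). That interaction passed in 3 alternatives, with no count filter (0.38), with the Itgax split as a term (0.37) and without cHet control 1 (0.46). The change in cHet passed with library totals (-0.43), with no count filter (-0.20) and without cHet control 1 (-0.26), and that in cKO with no count filter (0.17), with the split (0.24) and without cHet control 1 (0.19). Lamc1 changed by 0.26 in cKO (SE 0.25, adjusted p = 0.479) and 0.49 in cHet (SE 0.25, adjusted p = 0.17). With the Itgax split as a term Lamc1 changed by 0.45 in cKO and 0.65 in cHet and passed in both (edgeR adjusted p = 2.45e-06 and 1.29e-09). The split was drawn from the same scatter that these p-values rest on, so they tend to be too small and are given as a description. With that term 8 members passed in cKO, 3 in cHet and 9 for the mean. The additions were Igfbp4, Lamc1 and Sparc in cKO, Lamc1 in cHet, and Lamc1 and Col18a1 for the mean. Calls over all tested genes rose with that term too, to 5617 in cKO, 5815 in cHet and 7180 for the mean. Without it they were 4687, 4980 and 6518. The shares of members called stayed below those of all tested genes, as they did with library totals.

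The other members tested did not pass for Pg in any of the 4 comparisons. In the alternatives Col3a1 passed for the mean without cKO Pg 3 (0.91), and Col4a2 for the mean (-0.30) and Fstl1 in cHet (-0.74) with library totals. Col4a2 changed by -0.12 in cKO and 0.01 in cHet, Hspg2 by 0.03 and 0.05, Bgn by -0.09 and -0.05, and Pdgfrb by 0.42 and 0.11. The 95% intervals for cKO were wide where counts were few, for example -0.81 to 0.87 for Hspg2 and -1.22 to 1.04 for Bgn.

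Genes outside the set gave the surroundings of these differences, from lists that share no gene with it, tested for genotype over all 13800 genes with edgeR at an adjusted p of 0.05 (5.15% of genes in controls, with 3.02% lower in cKO, and 1.85% under Pg, with 1.2% lower in cKO). The count filter limits these lists as it does the members. Tnc, Col14a1, Loxl2, Grem1, Robo4 and Prrx1, near 0 in cKO, passed it only through their cHet libraries and had to differ. The same holds for Ctgf, Cyr61, Plvap, Pxdn, Mrc2, Lama5, Adamts2, Bmp1, Mcam and Notch3, which were low in cKO. The counts of lower genes are therefore descriptions of the tested genes, and are no support for the lists as wholes. The p-values of the genes named here are to be read in the same way. No gene of the 13 lists passed as higher in cKO, where 2.13% of all tested genes did in controls and 0.652% under Pg. A gene that passed the count filter only through its cHet libraries could not come out as higher. Among matrix glycoproteins and elastic fibre genes, 5 of 18 tested were lower in controls and 7 under Pg. Ctgf, a matrix-associated growth regulator, was at 0.254 ± 0.0454 CPM in cKO Pg and 9.18 ± 0.902 CPM in cHet Pg (log2 difference -5.14, SE 0.27, adjusted p = 2.42e-09), and Tnc, which encodes tenascin C, at 0.0912 ± 0.105 and 6.57 ± 0.156 CPM (-6.04, SE 0.52, adjusted p = 1.39e-06). Cyr61, another matrix-associated growth regulator, was at -3.73 in controls and -5.03 under Pg. Of the other collagens, 1 of 9 tested was lower in each treatment, Col14a1 (-2.25 in controls and -4.91 under Pg). Collagen processing and crosslinking genes gave 2 of 18 lower in each treatment, in controls Loxl2 (-4.21), a relative of Lox, and Bmp1 (-2.36), a protease that trims procollagen, and under Pg Bmp1 (-1.83) and Adamts2 (-4.11), another such protease. Laminins and other basement membrane genes gave 4 of 9 lower in controls, among them Lama5 (-2.11), Pxdn (-2.85) and Lama3 (-0.68), and 0 of 9 under Pg (3 at an unadjusted p under 0.05, 0 in DESeq2). Collagen receptor genes gave 1 of 9 lower in controls, Mrc2 (-3.02), and 0 of 9 under Pg (2 at an unadjusted p under 0.05, 0 in DESeq2). TGF-beta pathway genes gave 2 of 12 lower in each treatment, among them Inhba, a subunit of activin (-1.54 in controls and -1.09 under Pg).

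Many of these calls rest on single libraries. With each of the 12 libraries left out in turn, the laminin and basement membrane count in controls ran from 0 to 4, with 0 without cKO control 3, and 1 without cHet control 2, cHet control 3 or cKO control 1. It was 2 without cHet Pg 3, cKO control 2, cKO Pg 1 or cKO Pg 2. Lama3 kept its call in 4 of the 12 runs (-0.86 to -0.57), Pxdn in 9 (-3.24 to -2.30) and Lama5 in 10 (-2.43 to -1.82). The calls of Mrc2 in controls (without cHet control 3, cKO control 1 or cKO control 2, -2.89 to -2.48) and Col14a1 in controls (without cHet control 3 or cKO control 2, -2.10 and -2.02) were lost likewise. Under Pg, Bmp1 lost its call without cHet Pg 3, cKO Pg 2 or cKO Pg 3 (-1.88 to -1.55), Adamts2 without cHet Pg 2, cKO Pg 1 or cKO Pg 2 (-3.93 to -3.17), and Inhba without cHet Pg 2 or 3 or cKO Pg 1 or 3 (-1.07 to -0.94). The matrix glycoprotein count under Pg was 4 without cHet Pg 2, cKO Pg 1 or cKO Pg 2. Ctgf, Tnc and Cyr61 kept their calls in both treatments in all 12 runs, though they passed the count filter only through their cHet libraries.

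Some markers of other cell types were also lower in cKO. Those that passed did so in that direction only, which was fixed for genes that passed the count filter through cHet libraries alone. Of the fibroblast and mesenchymal markers 9 of 18 were tested, and 1 was lower in cKO controls (Nt5e, -0.80). Under Pg 2 were lower (Prrx1, -4.07, and Pdpn, -0.93), while Dpt, Tcf21 and Twist2 were at 0 in every library. Pdpn did not pass in controls (-0.06), at a mean of 6.79 CPM in cKO and 7.04 CPM in cHet. It was higher under Pg in both genotypes, at 28.4 CPM in cKO and 54.1 CPM in cHet. Smooth muscle and pericyte markers gave 2 of 6 tested lower in controls, Notch3 (-3.43) and Mcam (-2.03), and 1 under Pg, Mcam (-1.97), of 15 listed. Endothelial markers gave 6 of 15 tested lower in controls and 3 under Pg, of 20 listed, with Plvap, a protein of fenestrated vessels, at -3.23 and -3.00. Robo4, an endothelial guidance receptor, passed under Pg (-4.98), and Cdh5, VE-cadherin, was at -1.43 in controls and -0.90 under Pg, where it did not pass (adjusted p = 0.146). The reticular marker Grem1 was lower in both (-3.36 and -5.08), the 1 of 6 tested reticular and adipocyte markers that passed in either treatment. Osteoblast markers (2 of 10 tested) and chondrocyte markers (2 of 7 tested) gave 0 calls in both treatments, with 1 osteoblast marker at an unadjusted p under 0.05 in controls and 0 in DESeq2, and Bglap2, Dlx5 and Acan were at 0 throughout. Of these markers, the tested ones named here differed by -0.40 in controls and -0.10 under Pg (Runx2), -0.37 and -0.24 (Comp), and 0.45 and -0.46 (Chad). Without 1 library several of these calls were lost. Nt5e in controls kept its call in 4 of 12 runs, and lost it without any cHet control or cKO control library, cHet Pg 2 or cHet Pg 3 (-0.89 to -0.70). Pdpn under Pg kept it in 5 of 12 and lost it without any cHet Pg library, cKO control 2 or 3 or cKO Pg 1 or 3 (-0.97 to -0.79). Prrx1 under Pg lost it without cHet Pg 2 or 3 or any cKO Pg library (-4.42 to -3.58). Notch3 and Mcam in controls lost theirs without cKO control 3 (-2.89 and -1.90), and Mcam under Pg without cHet Pg 2, cKO Pg 1 or cKO Pg 2 (-2.03 to -1.48). The endothelial count was 3 in controls without cHet control 3, cKO control 2 or cKO control 3, and 1 under Pg without cKO Pg 1 or cKO Pg 2, where Robo4 also lost its call (-4.51 and -4.54). Plvap and Grem1 kept their calls in both treatments in all 12 runs, though they too passed the count filter only through their cHet libraries.

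Macrophage markers gave 0 of 13 in both treatments (3 and 4 at an unadjusted p under 0.05, 0 and 1 in DESeq2), with Csf1r at 0.04 in controls and 0.16 under Pg and Cd14 at 0.08 and -0.02.

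The summed levels of these lists rest mostly on a few abundant genes. Endothelial markers, carried mainly by Vwf, Eng, Stab2 and Pecam1, summed to 179 to 199 CPM in cKO Pg and 210 to 215 CPM in cHet Pg, and to 162 to 179 CPM in cKO control and 205 to 219 CPM in cHet control, without overlap. Smooth muscle and pericyte markers, dominated by Tpm1, summed to 77.7 to 83.2 CPM in cKO Pg and 75.8 to 96.0 CPM in cHet Pg, and to 40.4 to 50.3 CPM in cKO control and 43.9 to 55.4 CPM in cHet control, which overlap. Fibroblast markers, dominated by Vim, summed to 1935 to 2039 CPM in cKO Pg and 2223 to 2372 CPM in cHet Pg, and to 903 to 953 CPM in cKO control and 917 to 1064 CPM in cHet control. Reticular and adipocyte markers, dominated by Lpl, summed to 1209 to 1897 CPM in cKO Pg and 1775 to 2905 CPM in cHet Pg, and to 1006 to 1821 CPM in cKO control and 1093 to 2293 CPM in cHet control, with overlap in both treatments. Osteoblast markers summed to 7.71 to 10.8 CPM in cKO Pg and 9.50 to 11.3 CPM in cHet Pg, and to 6.48 to 9.16 CPM in cKO control and 9.61 to 10.4 CPM in cHet control. Chondrocyte markers summed to 1.41 to 2.13 CPM in cKO Pg and 1.55 to 3.23 CPM in cHet Pg, and to 1.11 to 2.14 CPM in cKO control and 1.86 to 3.23 CPM in cHet control. The part of these other cell types in the differences of the members was not tested.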

How the data were processed

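Gene counts were deposited by the authors as 1 table of 54532 genes in 12 libraries. Reads were processed with fastp, HISAT2 2.0.5 and featureCounts 1.5.0-p3 on mm10, per the submitters' processing notes; for the annotation release and the strand setting, nothing is stated (not given in the sources used here). The counts were used as deposited. Libraries were grouped by the genotype and treatment labels, 3 in each of 4 groups. Genes were filtered with edgeR's filterByExpr, which left 13800 of the 27404 genes with any count, and scaled by TMM. All 4 groups were fitted together with edgeR 4.0.16 (quasi-likelihood test, R 4.3.3), with Benjamini-Hochberg adjustment over all tested genes and a threshold of 0.05. Levels are CPM on TMM-scaled library sizes. A cKO percent is the ratio of summed counts scaled by library size, with a 95% exact interval that covers counting error only. The 95% intervals of log2 changes are normal approximations from an SE derived from the F statistic. They can exclude 0 where the test does not pass, as for Cald1 in cHet (0.013 to 0.92, edgeR unadjusted p = 0.0597).

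Values in every library are given for the 12 members with the highest mean CPM in cHet, the 3 highest in cKO, and up to 8 members past the threshold in a Pg comparison or the interaction. From each further list up to 3 genes past the threshold of a genotype comparison are named, or the 2 most abundant where none passed. Some genes that this rule names are not reported here. The members and lists were chosen with earlier results of these data known. The limits of 20% and 70% were set after the values were seen. Alternatives were library totals or DESeq2 size factors as scaling, no count filter, the DESeq2 1.42.0 Wald test, a replicate block, leaving out each library, and, chosen after seeing the data, the Itgax split as a term and other scalings or libraries left out for the count of members under 20%. The test was also run on simulated counts, drawn independently for each library. They held no Itgax split, so that run does not show how the test behaves with it.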

Additional observations from a re-analysis of the deposited data

Results flagged for a closer look

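Col18a1 was singled out because its response to Pg differed between the genotypes by a test of the difference itself. The log2 change under Pg was -0.38 in cKO and 0.65 in cHet macrophages, a difference of -1.03 (SE 0.17, edgeR adjusted p = 0.0107). The fall in cKO alone did not pass in several runs with a library left out, for example -0.23 without cKO control 3. The test of the difference shares its libraries with the genotype difference by which the members were known. The difference lay between -1.17 and -0.88 with any library left out and was -1.02 with the Itgax split as a term.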

How the results depend on the processing

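The Col18a1 interaction and the count of 23 tested members under 20% (23 or 24) held in every alternative run. No value that had passed its threshold changed sign. Some values that had not passed changed sign with a library left out, and still did not pass. Examples are Comp under Pg (-0.49 to 0.38), Cd14 under Pg (-0.14 to 0.13), Csf1r in controls (-0.03 to 0.13) and the Lox interaction (-0.18 to 0.09). Among values of the members called in a Pg comparison or the interaction, 515 stayed on their side of the threshold. Of the rest, 54 lost their call and 6 gained one. Calls gained by other members (Igfbp4, Lamc1, Fstl1, Col4a2 and Col3a1) are not in these counts. Among those of named other genes, 986 stayed, 77 lost it and 17 gained one. Of the list counts, 113 moved by over 1.5 times and 355 did not. The members called in cKO numbered 3 with library totals as scaling and 8 with the Itgax split, and 2 to 6 with a library left out. For the mean they numbered 4 with library totals and 4 to 7 with a library left out (4 without cHet Pg 2 or cKO Pg 3). In cHet they numbered 1 to 2 with a library left out (1 without cHet Pg 1). For the interaction they numbered 3 with no filter, 2 with the split and 1 to 2 with a library left out. The summed level of the members was 53.4% without Igfbp4, against 89.9% with it.

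Over all genes, the interaction count of 99 was 389 with no filter, 262 in DESeq2, 785 with the split and 42 to 207 with a library left out. The genotype count in controls, 711, was 1101 with no filter, 1722 with the split and 319 to 828 with a library left out, and the count under Pg, 255, was 507, 846 and 153 to 307. The cause of these shifts was not tested.

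Same-numbered libraries correlated at -0.29 to 0.32 over 18 pairs, in their deviations from the group means. This gave no clear sign of pairing by number. It cannot exclude pairing, since the unnamed Itgax split also shapes these deviations. With a replicate block the counts were 4448 for Pg in cKO, 4723 in cHet, 6323 for the mean, 70 for the interaction, 549 for genotype in controls and 220 under Pg, and 4 members were called in cKO, where Lox lost its call (0.45, edgeR adjusted p = 0.0566, against 0.0414 without the block), 2 in cHet, 7 for the mean and 1 for the interaction. DESeq2 gave no adjusted p for 28 member values. Most cKO levels of the low members rest on a few counts, which limits what the Pg comparison in cKO can detect.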

Other observations

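Of the 60 tested genes whose level in cKO was under 20% of cHet in both treatments, 23 were members, 10 were in the further lists and 27 were in neither. Gm42031, a gene model without a named function, stood furthest apart, at a mean of 0.163 CPM in cKO and 57.4 CPM in cHet. Aebp1, which encodes a collagen-binding protein, was at 0.202 CPM in cKO and 2.99 CPM in cHet, and Cyp1b1, a cytochrome P450, at 0.128 CPM in cKO and 2.98 CPM in cHet. Vsig4, a complement receptor of tissue macrophages, was at 0.288 CPM in cKO and 2.25 CPM in cHet. Apln, which encodes the peptide apelin, was at 0.386 CPM in cKO and 2.19 CPM in cHet. Tead1 and Wwtr1, a transcription factor and its cofactor TAZ, were at 0.0643 and 0.0997 CPM in cKO, against 0.865 and 0.786 CPM in cHet. These genes were picked by this same difference, so the values are a description.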
